A study of Mus musculus with 12 samples.

Results

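The 10 genes named below, of the growth hormone (GH) and insulin-like growth factor (IGF) axis, were followed in the livers of wild-type and Mettl5 knockout mice. They were taken by name from the deposited files as the receptor (Ghr), the signal carriers (Stat5a, Stat5b), the feedback inhibitors and repressors (Socs2, Cish, Bcl6), the secreted hormone and its plasma partner (Igf1, Igfals) and 2 secreted binding proteins (Igfbp1, Igfbp2). All 10 were present among the 10607 genes of the table of normalised values and among the 55487 genes of the input count table.

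METTL5 methylates an adenosine of 18S rRNA to N6-methyladenosine, and the study asked what its loss does to translation in the liver. Livers came from 3 Mettl5 knockout mice (KO) and 3 wild-type mice (WT), and the paper describes the controls as littermates. Mice with the same number in the labels were taken as 1 litter, giving 3 litters with 1 mouse of each genotype. Mouse numbers below are these litter numbers. The knockout derived from a floxed exon 2, built in stem cells of a C57bl/6 x 129S6 hybrid and backcrossed to B6, and was made whole-body by a CMV-cre line, so loss was not restricted to hepatocytes. All livers were lysed with cycloheximide (CHX), which holds ribosomes on mRNA, and the labels give neither age nor sex. From each liver, RNA-seq of undigested lysate (input) gave the level of each transcript, and sequencing of ribosome-protected fragments (RPF), which survive nuclease under a ribosome, gave its ribosome occupancy. Translation efficiency (TE) is the RPF value of a gene divided by its input value.

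In the liver, GH binds its receptor on hepatocytes and activates the kinase JAK2, which phosphorylates STAT5A and STAT5B. These factors then enter the nucleus and induce Igf1, Igfals, Socs2 and Cish, and they repress Bcl6, which itself codes for a repressor that can occupy STAT5 sites. SOCS2 and CISH damp the signal in turn. IGF1 leaves the liver and circulates in a complex with a binding protein and the acid-labile subunit encoded by Igfals. GH is released in pulses, most sharply in males, so STAT5 activity in a liver rises and falls within hours. Igfbp1 is induced by fasting and repressed by insulin, and Igfbp2 is likewise a product of the fasted liver.

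The 2 genes that differed most between mice, Cish and Bcl6, are a STAT5-induced and a STAT5-repressed gene, and their start regions are shown because both hold the letters of the STAT5 core motif. The motif searched was TTCNNNGAA, which is its own reverse complement, so 1 search covers both strands. Windows ran from 250 bases before to 50 bases after each RefSeq start on build GRCm38.p6, are written 5′ to 3′ on the strand of the gene, and carry each motif match in capitals.
Cish, chr9:107296409-107296708, plus strand: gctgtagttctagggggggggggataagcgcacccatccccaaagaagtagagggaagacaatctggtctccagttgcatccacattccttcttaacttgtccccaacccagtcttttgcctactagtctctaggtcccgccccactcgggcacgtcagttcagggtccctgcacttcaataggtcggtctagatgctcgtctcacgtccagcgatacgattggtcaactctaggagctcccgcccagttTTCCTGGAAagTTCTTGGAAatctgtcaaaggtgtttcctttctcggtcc
Bcl6, chr16:23981234-23981533, minus strand: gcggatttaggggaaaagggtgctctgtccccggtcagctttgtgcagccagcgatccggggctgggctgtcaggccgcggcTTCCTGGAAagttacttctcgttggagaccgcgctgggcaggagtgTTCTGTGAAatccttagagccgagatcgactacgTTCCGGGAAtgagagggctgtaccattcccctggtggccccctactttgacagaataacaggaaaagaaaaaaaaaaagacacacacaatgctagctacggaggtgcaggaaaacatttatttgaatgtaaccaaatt
The Cish window held 2 matches, TTCCTGGAA at bases 251 to 259 and TTCTTGGAA at bases 262 to 270, counted from the 5′ end, so that both lay just after the start. The Bcl6 window, which belongs to one of its 2 starts listed, held 3 matches beginning at bases 83, 129 and 163. The window of the other start, chr16:23988803-23989102, held 1 match, at bases 133 to 141, so the window with more matches is the one shown. Of 32851 windows of all genes, 8.30% held the motif, 0.457% held it 2 or more times and 0.0335% held it 3 or more times. Windows were found for 9 of the 10 genes (all but Socs2), and 3 of these genes (Cish, Bcl6 and Igfals) had a match, in 5 of 16 windows. The windows shown were chosen for their matches, so the shares over all windows are no test of them. These are matches of letters, and no binding was measured here.

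Input libraries held 8326325 to 11825643 counts, of which the 18S rRNA gene took 45.8% in KO mouse 1 and 59.1% to 63.8% in the other 5. RPF libraries held 4623826 to 9184242 reads over the genes of the table. Mettl5 itself had 21, 18 and 12 input counts in WT and 13, 7 and 5 in KO, and its RPF fell by 2.64 on the log2 scale (SE 0.36, adjusted p = 0.00504, limma), or with KO mouse 2 left out differed by −2.44 (adjusted p = 0.0519). All 8 hepatocyte markers were detected in every input library, with a sum of 23968 to 31042 CPM, scaled to a TMM-normalised library, in WT and 24436 to 26475 CPM in KO. Lists for endothelial, Kupffer, stellate, bile duct, lymphoid and erythroid cells each summed to between 2.46 and 117 CPM, with no marker at 0 in all 6 libraries. The 6 stellate markers summed to 67.8 to 77.5 CPM in WT and 80.4 to 92.6 CPM in KO. The female-specific Xist had 0 counts in all 6 inputs, where 0 allows up to 3 counts, and the Y-linked Ddx3y had 261 to 728, as in male tissue.

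Among the 10 genes, Igfbp2 and Igfbp1 transcripts, Igf1 and Ghr were the most abundant per length, and the signal carriers and repressors were the least. Levels between genes were compared as normalised read counts per kilobase, over exons for input and over coding sequence for RPF, and are given as WT mean ± SD over 3 mice. Igfbp2 stood at 626 ± 317 in input, followed by Igfbp1 at 258 ± 73.3, Igf1 at 244 ± 8.44 and Ghr at 229 ± 9.95, and each neighbour in this order lay within the SDs of the next. Igfals at 112 ± 7.77 and Stat5b at 36.0 ± 9.41 were each below the gene before them by more than those SDs. Bcl6 at 18.5 ± 19.7 could not be separated from Stat5b or from Socs2 at 16.5 ± 2.89. Cish at 6.46 ± 6.03 and Stat5a at 4.17 ± 0.860 came last and overlapped. The order on ribosomes was different at the top.
In RPF, Igf1 led with 5486 ± 197, above Igfbp2 with 2633 ± 1399 and Igfbp1 with 1022 ± 308, the last 2 within their SDs. Ghr at 609 ± 33.4, Igfals at 418 ± 27.8 and Bcl6 at 87.9 ± 89.6 followed, each below the one before by more than the SDs. Cish at 61.3 ± 39.9 and Stat5b at 46.9 ± 16.5 overlapped Bcl6 and each other. Socs2 at 12.3 ± 5.12 and Stat5a at 9.27 ± 2.86 lay below Cish and Stat5b but could not be separated from Bcl6. Igf1 has 9904 bases of exon and 495 of coding sequence, so its place rests on the length used, since input reads were counted over exons, untranslated parts included.

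**Figure D1:**
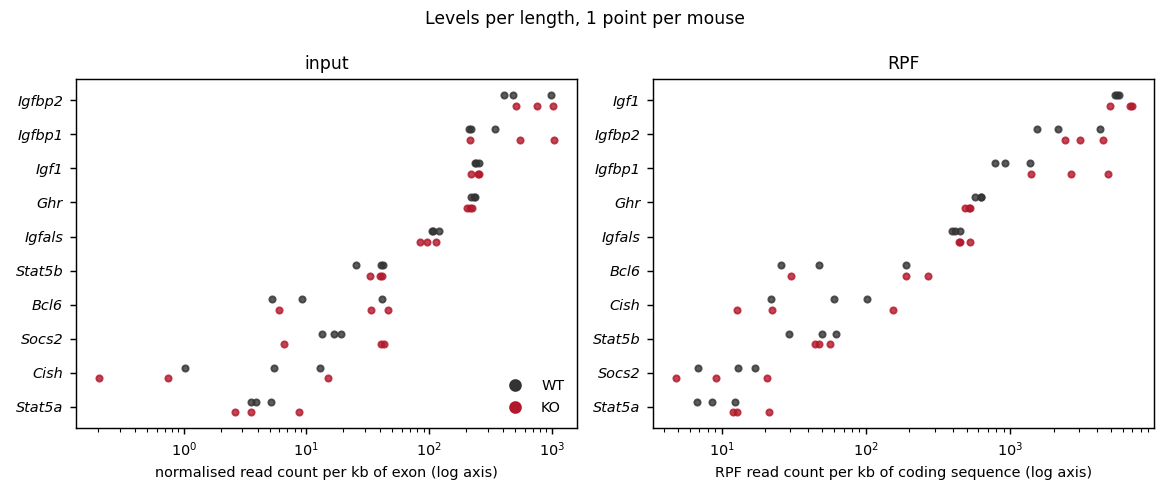
Normalised read counts per kilobase (log axes) of the 10 genes, input over exon length on the left and RPF over coding length on the right, ordered by WT mean, with 1 point for each of 3 WT and 3 KO mice. Igfbp2 is highest in input (WT mean 626) and Igf1 in RPF (WT mean 5486), and the points of Cish and Bcl6 spread more widely along the axis than those of Ghr, Igf1 and Igfals.

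None of the 10 genes passed an adjusted p of 0.05 between genotypes in input, RPF or TE. For input, edgeR's quasi-likelihood test called 0 of 10057 genes (0%) at that threshold and 348 (3.46%) at an unadjusted p under 0.05, and 0 of the 10 axis genes at either. DESeq2 called 1 gene in input, Mup20. For RPF, limma called 44 of 8994 genes (0.489%) at the adjusted threshold and 1205 (13.4%) at the unadjusted one, 719 lower in KO (7.99%) and 486 higher (5.4%). Of the axis genes 9 were tested there, Socs2 falling under the minimum mean of 10, and 1 of these, Ghr, had an unadjusted p under 0.05. For TE, limma called 0 of 8994 genes (0%) at the adjusted threshold and 423 (4.7%) at the unadjusted one, with 0 of the 9 axis genes at either, and edgeR on the recovered reads also called 0. Both TE fits treat the input and RPF of the same liver as independent. Spread between mice that the 2 assays share therefore widens the SE of TE. A fit with mouse as a block, which pairs them, called none of the axis genes either. WT and KO values did not overlap for 9.25% of genes in input, 19.8% in RPF and 13.4% in TE. Among the axis genes tested in RPF this held for 0 of 9, 2 of 9 (Ghr and Igfbp1) and 2 of 9 (Igfals and Igfbp1) respectively. Fewer cells of a type and less RNA per cell cannot be told apart in whole liver.

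**Figure D2:**
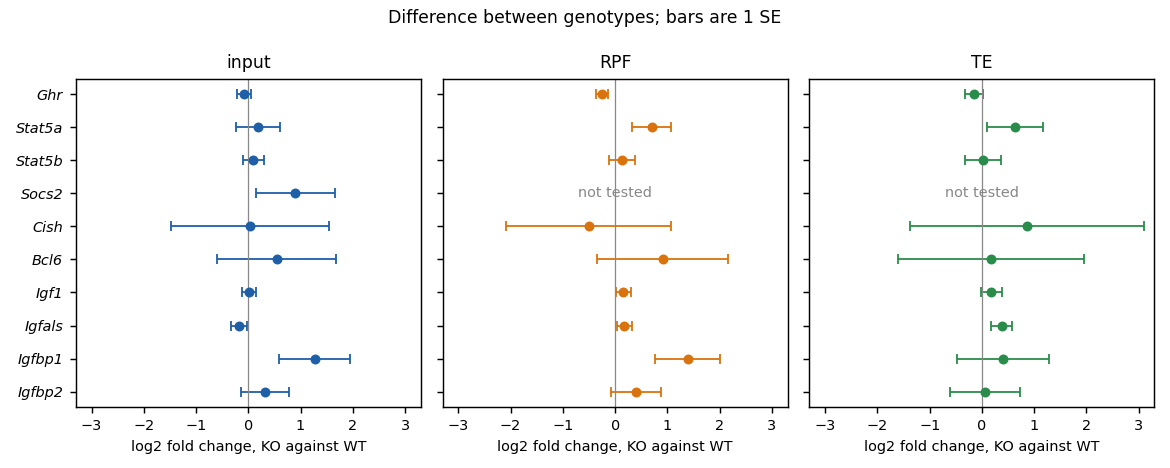
Log2 fold change of KO against WT for the 10 genes in input (edgeR), RPF and TE (limma), with bars of 1 SE. The TE fit does not pair the input and RPF of a liver. Its input term comes from limma, so TE need not equal the RPF point minus the input point shown. The bars of Ghr, Igf1 and Igfals are short, those of Cish and Bcl6 reach more than 1 log2 unit to either side, and no gene passed an adjusted p of 0.05.

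Ghr, the receptor for GH (chr15:3317760-3583492, minus strand, mm10), was steady across the 6 livers and slightly lower in the RPF of all KO mice. Its input value was 2155.3, 2097.1 and 1978.6 normalised read counts in WT mice 1, 2 and 3, and 1841.7, 2025.6 and 1930.0 in KO mice 1, 2 and 3. In RPF it was 1111.8, 1230.3 and 1217.7 in WT, and 1012.8, 1030.3 and 943.2 in KO. The genotypes thus overlapped in input, and in RPF each KO value was below each WT value. The input difference was −0.08 on the log2 scale (SE 0.13, 95% interval −0.34 to 0.18) and that of RPF −0.25 (SE 0.12, unadjusted p = 0.0452, adjusted p = 0.365, limma). That difference fails the correction over all genes, and 7.99% of genes were lower at this unadjusted level. With the trend of each library over GC content of the coding sequence removed, the RPF difference of Ghr was −0.05 (adjusted p = 0.924, limma). Within a genotype Ghr varied less than nearly all genes, with an SD of 0.066 on the log2 scale in input, at percentile 0.923 of the 8994 genes tested.

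STAT5A and STAT5B are close relatives that carry the GH signal to the nucleus, and in liver STAT5B is the more abundant. Stat5b (chr11:100780731-100850724, minus strand) was at 225.6, 139.5 and 233.4 input counts in WT and 226.9, 182.1 and 219.1 in KO. Its RPF was 146.4, 69.1 and 116.6 in WT and 111.2, 104.5 and 132.8 in KO. WT mouse 2 was lowest in both assays, and its KO littermate was lowest among KO mice in both. The input difference of Stat5b was 0.10 (SE 0.19) and the RPF difference 0.13 (SE 0.24) on the log2 scale.
Stat5a (chr11:100859351-100885169, plus strand) lies next to Stat5b and had a lower level than it per length in every library. Input values of Stat5a were 27.5, 25.1 and 36.7 in WT and 25.0, 18.6 and 62.4 in KO, and RPF values 29.6, 16.2 and 20.6 in WT and 30.6, 28.9 and 50.7 in KO. KO mouse 3 was highest in both assays, while the other KO mice lay below the WT range in input. In all 3 litters the RPF of Stat5a was higher in KO, with a difference of 0.70 (SE 0.38, adjusted p = 0.441, limma) that did not pass, on as few as 19 reads in a library.

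Socs2 (chr10:95385362-95417180, minus strand), a suppressor of GH signalling that is itself induced by STAT5, was higher in input in 2 of 3 KO mice and lower in KO mouse 2. Its input values were 183.4, 128.5 and 160.0 in WT, close together, and 405.2, 62.5 and 385.4 in KO, with KO mouse 2 below every WT mouse. The input difference was 0.90 (SE 0.76, 95% interval −0.59 to 2.38, adjusted p = 0.999, edgeR). With KO mouse 2 left out it was 1.37 (SE 0.18) and passed, with an adjusted p of 0.00196, whereas leaving out any other mouse, a litter block, DESeq2 and the other alternatives gave 0.52 to 1.02 without a call. Whether Socs2 passed thus depended on that mouse.
Few RPF reads were found on Socs2. Its RPF was 7.8, 10.2 and 4.1 in WT and 12.5, 5.5 and 2.9 in KO, which is 3 to 18 reads per library. Its mean log2 TE in WT was −4.49, and only 63 of 10607 genes were lower (percentile 0.594), against a median of 0.01 over all genes. Socs2 has 9531 bases of exon and 601 of coding sequence, and per kilobase of each the WT means were 16.5 in input and 12.3 in RPF. The 2 KO mice with the highest input of Socs2, 405.2 and 385.4, had 12.5 and 2.9 in RPF, so the order of the mice in input did not carry over at these read numbers.

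Cish (chr9:107296026-107302784, plus strand), a STAT5-induced inhibitor of cytokine receptors, varied most of the 10 genes in input, and it varied within each genotype. Its input counts before normalisation were 19, 53 and 5 in WT and 147, 1 and 3 in KO. Normalised, these were 34.9, 83.1 and 6.6 in WT and 96.7, 1.3 and 4.8 in KO. RPF values were 46.2, 78.5 and 17.0 in WT and 119.6, 9.8 and 17.2 in KO. In both assays KO mouse 1 was highest, with WT mouse 2 and then WT mouse 1 after it, and KO mouse 2 was lowest. The genotype difference was 0.03 in input (SE 1.52, edgeR) and −0.50 in RPF (SE 1.58, limma), with intervals of −2.94 to 3.00 and −3.60 to 2.60. These values are on unlike scales, since edgeR models counts and limma compares means of log2 values. The TE fit takes its input from limma, and its Cish difference was 0.87 (SE 2.24). Subtracting the input value above from that of RPF therefore does not give it. The within-genotype SD of Cish was 2.35 on the log2 scale in input and 1.5 in RPF, at percentiles 99.97 and 99.8, against medians of 0.26 and 0.25 over all genes tested.

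Bcl6 (chr16:23965052-23988852, minus strand), the repressor that STAT5 holds down, ran the other way. Its input values were 34.9, 61.1 and 275.4 in WT and 40.1, 225.9 and 308.6 in KO. On ribosomes it had 54.9, 99.8 and 404.4 in WT and 64.6, 403.3 and 571.5 in KO. WT mice 1 and 2 and KO mouse 1, where Cish was above 30 in input, had Bcl6 at 61.1 or below, and WT mouse 3 and KO mice 2 and 3, where Cish was below 7, had Bcl6 at 225.9 or above. RPF gave the same division of mice, with Bcl6 at 99.8 or below in the first 3 mice and at 404.4, 403.3 and 571.5 in the others. The other STAT5-induced genes followed here, Socs2, Igf1 and Igfals, did not divide the mice in this way in input. KO mouse 3, low in Cish, had the highest Igf1 and, after KO mouse 1, the highest Socs2. WT mouse 3, also low in Cish, had the highest Igfals. STAT5 activity was not measured. No correlation of Cish with Bcl6 is given over the 6 mice, because the mice fall into separate clusters, and they were not regrouped for any test. In each litter Bcl6 was higher in the KO mouse in both assays. The fitted log2 differences were 0.55 in input (SE 1.14, edgeR) and 0.91 in RPF (SE 1.26, limma), neither of which passed. On leaving out single mice these ranged over 0.0076 (without KO mouse 3) to 1.94 (without WT mouse 3) in input and 0.29 (without WT mouse 1) to 1.87 (without KO mouse 1) in RPF. Bcl6 had a within-genotype SD of 1.55 in input and 1.58 in RPF, at percentile 99.9 in both.

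**Figure D3:**
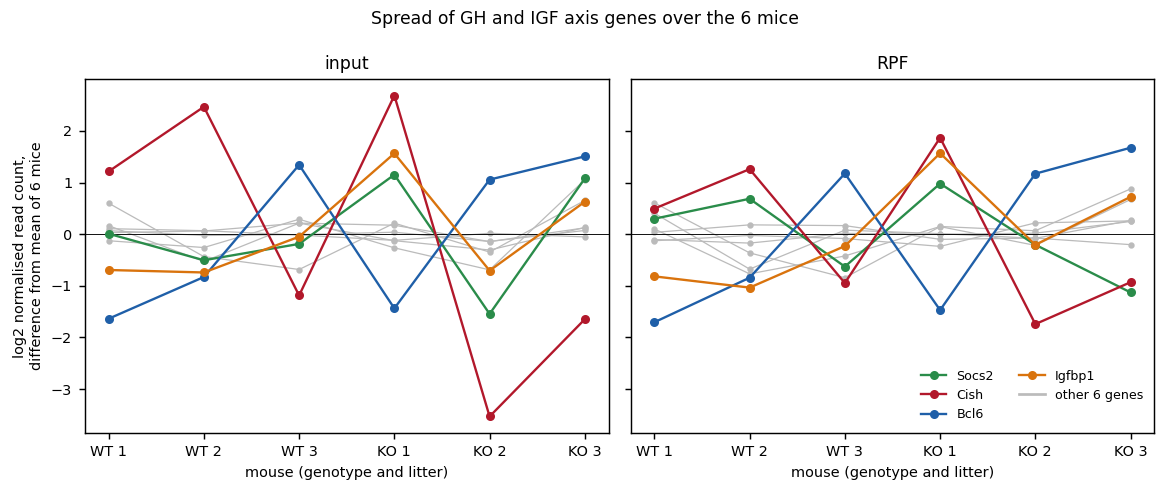
Log2 normalised read count of each gene in each mouse minus the mean of that gene over the 6 mice, input on the left and RPF on the right, with lines only to help follow 1 gene from mouse to mouse. Cish (red) and Bcl6 (blue) lie on opposite sides of 0 in all 6 mice and in both assays, and the 3 mice with high Cish are WT 1, WT 2 and KO 1.

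Igf1 (chr10:87858265-87937042, plus strand), the hormone that the GH signal induces in liver, was among the steadiest genes in input. Input values were 2507.5, 2351.0 and 2378.5 in WT and 2456.7, 2169.1 and 2515.3 in KO, so that highest and lowest mouse differed by 1.16 times. Bcl6 spanned 8.85 times over the same livers. The input difference of Igf1 between genotypes was 0.01 (SE 0.14, 95% interval −0.26 to 0.27). RPF values of Igf1 were 2624.3, 2818.1 and 2704.1 in WT and 2433.5, 3335.5 and 3426.1 in KO. KO mice 2 and 3 were above all WT mice and KO mouse 1 was below them, for a difference of 0.16 (SE 0.14, adjusted p = 0.662, limma).

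Igfals (chr17:24865997-24882010, plus strand) encodes the acid-labile subunit that retains IGF1 in plasma. Its input was 335.7, 343.2 and 381.6 in WT and 301.3, 265.8 and 359.8 in KO, lower in the KO mouse of each litter. Its RPF was 745.8, 710.7 and 809.7 in WT and 800.1, 812.0 and 949.9 in KO, higher in the KO mouse of each litter. Input and RPF thus moved apart, by −0.17 (SE 0.15) and 0.17 (SE 0.14), and the log2 TE of 1.15, 1.05 and 1.09 in WT lay below that of 1.41, 1.61 and 1.40 in KO with no overlap. The TE difference of 0.38 (SE 0.20, 95% interval −0.01 to 0.76) had an unadjusted p of 0.0721 and an adjusted p of 0.998 (limma) and did not pass. The coding sequence of Igfals is 59.5% GC, and with the GC trend removed its RPF difference was −0.01 and its TE difference 0.19 (SE 0.18, adjusted p = 0.999, limma).

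Igfbp1 (chr11:7197782-7202546, plus strand), a fasting-induced protein that sequesters IGF1, had the largest fitted difference of the 10 genes in input and in RPF. Its input was 333.8, 322.9 and 521.9 in WT and 1597.7, 330.9 and 834.7 in KO. In RPF it had 744.1, 639.9 and 1117.6 in WT and 3887.0, 1136.6 and 2164.6 in KO. The KO mouse was higher in every litter in both assays, but in litter 2 the input values nearly coincided, and the lowest KO value in RPF exceeded the highest WT value only narrowly. The difference was 1.27 in input (SE 0.67, adjusted p = 0.999, edgeR) and 1.39 in RPF (SE 0.62, unadjusted p = 0.0544, adjusted p = 0.382, limma), or 2.41-fold and 2.62-fold. It ranged over 0.58 to 1.67 in input and 0.95 to 1.84 in RPF when single mice were left out, lowest in each without KO mouse 1.
Igfbp2 (chr1:72824503-72852474, plus strand), the other binding protein of fasted liver, was at 1827.0, 891.8 and 750.0 in the input of WT and at 1397.7, 947.7 and 1896.4 in KO. Its RPF was 3851.9, 1967.4 and 1409.6 in WT and 2799.8, 2175.5 and 4030.1 in KO. KO mouse 3 and WT mouse 1 were the highest in both assays, and the genotypes overlapped. The difference of Igfbp2 was 0.32 in input (SE 0.46) and 0.40 in RPF (SE 0.48).

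**Figure D4:**
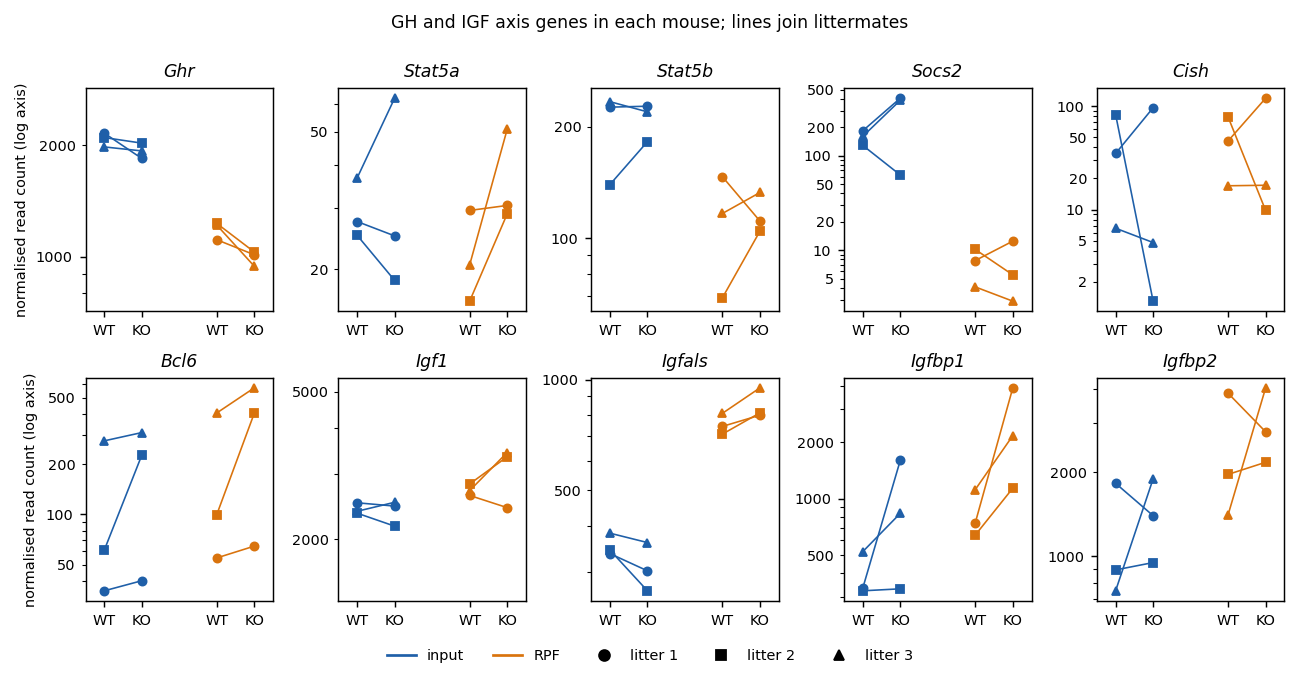
Normalised read counts (log axes, scale set per panel) of the 10 genes in input (blue) and RPF (orange) for WT and KO mice, with marker shape for litter and lines joining littermates. Ghr RPF is lower and Igfals RPF higher in the KO mouse of all 3 litters, and the lines of Socs2 and Cish run in both directions.

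In mean log2 TE in WT, the secreted products, Bcl6 and Cish lay above the median of all genes, and the receptor, the carriers and Socs2 below it. Igfals, Igfbp1 and Igfbp2 were at 1.10 ± 0.05, 1.08 ± 0.09 and 1.04 ± 0.12 (SD, 3 mice), at percentiles 85.9, 85.5 and 84.5 of 10607 genes. Bcl6 was at 0.64 ± 0.08, and Cish at 0.57 ± 0.74. In the fit that does not pair the assays, the TE difference of Bcl6 between genotypes was 0.17 (SE 1.78), far wider than this SD. Igf1 was at 0.17 ± 0.10, near the middle of all genes. Stat5a at −0.45 ± 0.49, Ghr at −0.81 ± 0.13 and Stat5b at −0.88 ± 0.22 lay below the median. Input was counted over whole exons, so these ratios are not per length, and genes with long untranslated parts such as Ghr, Igf1 and Socs2 are compared with others on unequal terms.

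Other genes of the GH receptor pathway (Jak2, Stat3, adaptors, phosphatases and other SOCS genes) were tested as a list of 15. This list and those below were chosen with earlier results of these data known. Of 13 tested, none was called in input, RPF or TE, and medians were 0.01 in input and 0.05 in RPF, against 0.00 and −0.03 over all genes. A single gene, Sirpa, a membrane protein that recruits phosphatases, had an unadjusted p under 0.05 in RPF, a level that 13.4% of all genes reached, and was higher there by 0.56 (SE 0.25, unadjusted p = 0.0370, adjusted p = 0.343, limma). That difference did not pass the correction.

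Further IGF and insulin receptor genes were tested as a list of 16. In RPF 9 were tested, 7 of them with higher values in KO, with 5 at an unadjusted p under 0.05 against 5.4% of all genes, a median of 0.38 against −0.03, and 1 call. That call was Irs1, the docking protein of the insulin and IGF1 receptors. Its RPF was 68.8, 58.0 and 81.5 in WT and 110.5, 138.3 and 108.0 in KO, with no overlap, while input overlapped at 244.0, 195.9 and 233.4 in WT and 238.1, 249.9 and 212.7 in KO. No overlap in RPF, in either direction, was found for 19.8% of all genes. The RPF of Irs1 rose by 0.77 (SE 0.17, adjusted p = 0.0490, limma), just past the threshold. The call was lost on leaving out any mouse other than KO mouse 1 (adjusted p 0.0836 to 0.247), with a pseudocount of 5, with no filter on values and with the GC trend removed (0.61, adjusted p = 0.183). In TE, Irs1 differed by 0.71 (SE 0.24, unadjusted p = 0.00836, adjusted p = 0.998, limma).
Irs2, the second docking protein and a fasting-induced gene in liver, had RPF values of 103.7, 87.9 and 220.2 in WT and 389.3, 221.9 and 447.3 in KO. It differed by 1.41 (SE 0.50, unadjusted p = 0.0197, adjusted p = 0.274, limma), and in the fit with litter as a replicate block it was called, so that 2 genes of the list were called there. That fit called 236 of 8994 genes in all, against 44 in the main fit. Igfbp3, the main plasma carrier of IGF1, was higher by 0.63 (SE 0.28, adjusted p = 0.348, limma) and the receptor gene Igf1r by 0.74 (SE 0.34, adjusted p = 0.359, limma), neither called. With the GC trend removed the list had 3 genes at an unadjusted p under 0.05 and a median of 0.06. The count of 5 was 1 without KO mouse 3 (median 0.22) or WT mouse 1, 2 without WT mouse 2, and 3 without KO mouse 1 or WT mouse 3. The shares of all genes higher at that level in these settings are not given here. Of the 6 stellate markers 5 were tested in RPF, 4 of them higher in KO at an unadjusted p under 0.05, where 5.4% of all genes were. Their median was 0.45, and 2 were called with the replicate block. The part of stellate markers in the values of this list was not tested.

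A list of 13 genes that pulsatile GH keeps high in male liver was lower in KO as far as it was tested in RPF. The list was chosen with earlier results of these data known, so its counts describe these mice and are no independent test. There all 12 tested were lower, 9 at an unadjusted p under 0.05 where 7.99% of genes were, with a median of −0.85 against −0.03 over all genes. Only Mup20 was called, a major urinary protein whose RPF was 1010.7, 1720.9 and 1672.1 in WT and 358.7, 346.1 and 517.0 in KO. The RPF of Mup20 fell by 1.83 on the log2 scale (SE 0.28, adjusted p = 0.0120, limma), and its input differed by −1.31 (SE 0.26, adjusted p = 0.801, edgeR; adjusted p = 0.00239, DESeq2). Its RPF call was lost without WT mouse 2 or 3 or KO mouse 2 (adjusted p 0.0856 to 0.144). Cell type markers also moved in RPF. Of 8 hepatocyte markers 6 were lower, 2 at an unadjusted p under 0.05 (median −0.21), 3 of 3 erythroid markers tested were lower (median −0.86, none at that level), and the stellate median was 0.45. Of 6 endothelial markers 3 were higher, 2 at that level (median 0.01). Medians were −0.03 for 5 Kupffer markers tested, 0.27 for 2 bile duct markers and −0.12 for 1 lymphoid marker, with none at that level. Their part in the values of the male-biased genes was not tested. Without Mup20, a choice made after the values were seen, the list had 11 of 11 lower, 8 at an unadjusted p under 0.05 and a median of −0.77.
Slco1a1, an organic anion transporter, had RPF values of 3946.9, 3333.4 and 3341.6 in WT and 2576.7, 2235.1 and 2432.2 in KO, a difference of −0.55 (SE 0.13, adjusted p = 0.0597, limma). Hsd3b5, a steroid-metabolising enzyme, had 664.8, 665.5 and 599.8 in WT and 426.8, 306.7 and 462.5 in KO, a difference of −0.71 (SE 0.17, adjusted p = 0.0709, limma). Cyp2d9, a male-biased cytochrome P450, differed by −0.49 (SE 0.14, adjusted p = 0.104, limma). In all 3 genes every KO value was below every WT value in RPF. Such a lack of overlap, in either direction, held for 19.8% of all genes, and these 3 were named for their small p.

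**Figure D5:**
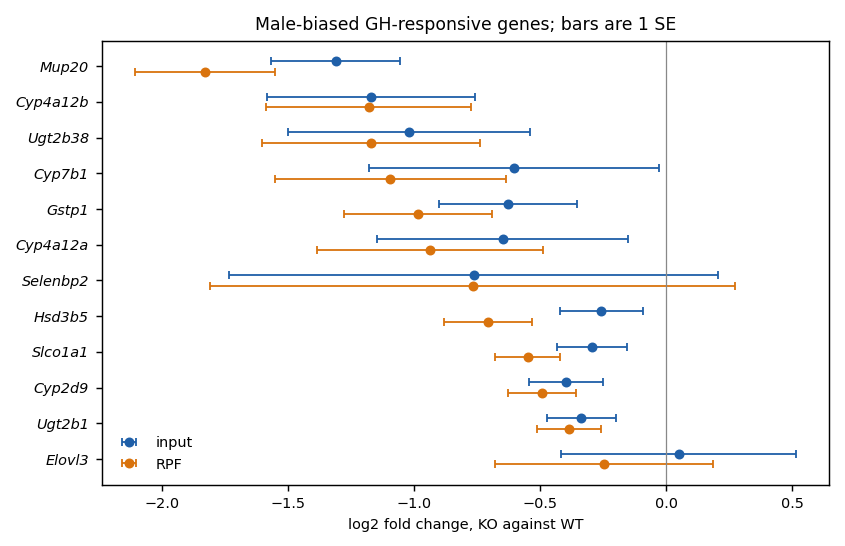
Log2 fold change of KO against WT for the 12 tested male-biased GH-responsive genes in input (blue, edgeR) and RPF (orange, limma), with bars of 1 SE. All RPF points lie below 0 and all input points except Elovl3 do, and Mup20, at −1.83 in RPF, was the only one called.

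The fit with litter as a replicate block called 6 of these 12 genes in RPF and 1 in input, all lower, where it called 1.66% and 0.0199% of all genes as lower. Removal of the GC trend left 0 called, 6 lower at an unadjusted p under 0.05, where 5.24% of all genes were, and a median of −0.82. In input 11 of 12 were lower, 4 at an unadjusted p under 0.05 where 1.49% of all genes were, with a median of −0.62 against 0.00. That input count of 4 was 1 without KO mouse 1 (median −0.34) or WT mouse 3, 2 without WT mouse 2, and 10 without KO mouse 3 (median −0.73, 2 called). Over all genes these input fits called 0 to 21. In TE none of the 12 had an unadjusted p under 0.05 and the median was −0.17 against −0.01. When single mice were left out, 11 or 12 of 12 were lower in RPF, 7 to 10 at an unadjusted p under 0.05, and 0 to 4 were called. The 4 calls came without KO mouse 1, where 226 of all genes were called, against 44 in the main fit. Shares of all genes at the unadjusted level with a mouse left out are not given here. Several of these genes belong to families with members of similar sequence (Cyp4a12a and Cyp4a12b, Ugt2b and Mup genes), for which uniquely mapped reads may be split or lost. How far this affects each gene was not tested. The input of Igf1 over the same mice differed by 0.01, as given above.

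The counterpart list of 15 female-biased genes was mostly too low to test. Cyp2b13, Cyp3a41a and Sult3a1 had 0 counts in every input library, where 0 allows up to 3 counts each. Only 1 gene was tested in input and 2 in RPF. Prlr, the prolactin receptor, had input values of 260.5, 233.5 and 262.2 in WT and 474.9, 247.2 and 377.4 in KO, a difference of 0.58 (SE 0.22, unadjusted p = 0.0216, adjusted p = 0.999, edgeR), with WT and KO overlapping through KO mouse 2.

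Of 15 genes governed by fasting and insulin, a setting shared with Igfbp1, Igfbp2 and Irs2, 13 were tested and none was called. Medians were 0.19 in input and 0.31 in RPF, with 9 of 13 above 0 in each, and Irs2 alone had an unadjusted p under 0.05, in RPF, where 13.4% of all genes did. The RPF median was 0.04 without WT mouse 1 and 0.07 without KO mouse 2, and the input median was 0.08 and −0.10 (8 of 14 lower) without these mice. Irs2 belongs to this list and to that of the IGF system. Feeding state and hour of collection are not among the labels.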

How the data were processed

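Input reads were trimmed with BBDuk, aligned to mm10 with STAR 2.7.3a and counted over exons, uniquely mapped and by strand, with featureCounts by the authors, and the deposited counts are whole read pairs per gene. The version of featureCounts is 1.6.0 in the submitters' processing notes. RPF reads, taken from the first read alone, were freed of rRNA and mapped on the RiboToolkit server. The signal columns deposited by the authors are reads divided by 1 factor per library, without gene length: within a tolerance of 0.001, 100% of values came out as whole reads, and the input reads equalled the counts. How the factors were set is not given in the sources used here. Columns with the authors' own fold changes and p-values were not used, and 0 columns lacked a sample.

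Input counts were tested with edgeR 4.0.16 in R 4.3.3 (TMM, filterByExpr, robust quasi-likelihood). For RPF and TE, limma 3.58.1 (trend, robust) was fitted to log2(value + 1) for genes whose mean reached 10 in both assays, with 4 group means in 1 fit, and TE is the difference of the RPF and input contrasts. Fold changes on this scale understate those of low genes. The input contrast within TE is that of limma, whereas the input differences reported are those of edgeR, so the 3 values of a gene need not subtract. The design had assumed length-normalised values, and edgeR was also run on the recovered reads. P-values are two-sided, adjusted by Benjamini-Hochberg over all genes, and cover the spread between 3 mice per genotype. The main TE fit does not pair the input and RPF of a liver, whereas the alternative with a block of mouse does. Intervals of 95% are normal intervals from the estimate and its SE. Alternatives were RLE factors, DESeq2 1.42.0, other filters and pseudocounts, centred columns, a block of litter or mouse, GC trend removal, and each mouse left out. Floors cover counting error only. Fits were tested on simulated data.

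Mice that share a number in the labels were taken as littermates, and so as paired. Across genes, the deviations of such pairs from group means correlated at 0.082 to 0.127 in input and at 0.144 to 0.242 in RPF. Fits without litter as a block come first, because the study names no such term. The genes and lists were chosen with earlier results of these data known. Besides the 10 genes and Mettl5, up to 4 genes per list were named, by smallest p among genes that reached an unadjusted p under 0.05 and moved alike in all 3 litters. A further gene that met this rule is not reported here. CDS length and GC content came from the GENCODE annotation of the mm10 reference, with a value for 99.8% of genes.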

Additional observations from a re-analysis of the deposited data

How the results depend on the processing

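Across 393 values of the 10 genes under alternatives, 365 kept direction and side of the threshold, 1 gained a call (Socs2 input, 1.37 without KO mouse 2) and 27 changed sign, none of them called either way. With the GC trend removed, alone or with the replicate block, the TE difference was 0.0009 for Ghr, −0.0843 for Stat5b and −0.26 for Igfbp2, and the RPF difference of Igfals was −0.011. Cish input was −0.22 with DESeq2 and −0.60 with the replicate block, and with edgeR on whole reads Cish RPF was 0.14 and Stat5b TE −0.0134. On leaving out single mice the values that changed sign ranged over −0.0268 to 0.075 for Igf1 input, −0.39 to 0.47 for Stat5a input, −0.11 to 0.23 for Stat5b input, −0.18 to 0.36 for Stat5b RPF, −0.0368 to 0.15 for Stat5b TE, −3.70 to 1.07 for Cish input, −1.54 to 0.20 for Cish RPF, −0.0125 to 0.10 for Igfbp2 TE and −0.0045 to 0.15 for Irs1 input.

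Genes called in input numbered 0, against 1 with DESeq2, 30 with no count filter, 2 with the replicate block (litter) and 0 to 21 on leaving out single mice (21 without KO mouse 2). In RPF the count was 44, against 236 with the replicate block, 13 with the GC trend removed, 66 with edgeR on whole reads, 63 with a minimum mean of 50, and 0 to 226 on leaving out single mice (0 without KO mouse 2, 226 without KO mouse 1). In TE it was 0, against 1 with the replicate block, with or without GC removal, and 0 on leaving out any mouse. The replicate block changed no call of the 10 genes. The causes were not tested. Irs1 RPF was 0.74 with a pseudocount of 5, 0.77 with no filter and 0.61 with the GC trend removed, and no longer called. Mup20 RPF was −1.50 with the GC trend removed and no longer called, while its input was called with DESeq2 (−1.31), with no count filter (−1.31) and with the block (−1.37). Low depth limits Socs2 in RPF and Cish in input, where a library held as few as 3 reads and 1 count.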

Other observations

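Pappa, the protease that cuts IGF-binding protein 4 and so frees IGF, stood out among the IGF genes for its lack of RPF and was chosen after its values were seen. Its input ranged from 1022.8 to 3749.4 normalised read counts over the 6 mice, a range that takes in Igf1, while its RPF ranged from 2.1 to 16.0. Before normalisation its counts were 2044, 1323 and 1474 in WT and 1555, 2094 and 1670 in KO. They did not rise in KO mouse 1, which had 4745069 counts outside 18S, mitochondrial rRNA and Lars2, against 2077408 to 2663087 in the other inputs. Whether the input reads come from Pappa mRNA was not tested. Its mean RPF of 7.0 in WT and 10.0 in KO kept it out of the RPF and TE tests, and its input differed by −0.24 (SE 0.50) between genotypes.

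For each of the 10 genes, the transcripts whose log2 input level followed it most closely over the 6 libraries were listed by Pearson r, as a description over mice that share library depth and litter. For Cish these were Foxq1 (r = 0.987) and Plcxd2 (r = 0.985), and for Bcl6 Nol11 (r = 0.991) and Cad (r = 0.989). Socs2 was followed by Cfp (r = 0.994) and Hnrnpa0 (r = 0.988), Igfbp1 by Rpl19 and Ctc1 (r = 0.983 and 0.982), and Igfbp2 by Dlg3 and Max (r = 0.995 and 0.989). Ghr was followed by R3hdm1 and Akap9, Igf1 by Rabggtb and Slc38a6, Igfals by Naa15 and Eif2s3x, Stat5a by Smarca5 and Wdr83os, and Stat5b by Ypel2 and Smad1, with r between 0.971 and 0.992. Of 8438 genes compared, 13 to 27 exceeded 0.95 with each gene. The genes named are the highest of that search over only 6 libraries, so a high r was built into the choice. Whether these numbers exceed those for unrelated genes was not tested, and for Cish and Bcl6 the clusters of mice alone can give a high r.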
